A study of Homo sapiens with 60 samples.

Results

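The comparison described here set HT29 cells given the 2 upper doses of a ginseng extract against HT29 cells given a DMSO vehicle. The 6 ginseng libraries, 3 at 500 and 3 at 100 µg/mL, were pooled because their labels name a water extract of Panax Ginseng at the high or the medium dose, and they were compared with the 3 libraries labelled as DMSO vehicle, 9 of 60 libraries in all. HT29 is an established line from a human colorectal adenocarcinoma, and every group used here was exposed for 24 h. The other groups used were the same extract at 20 µg/mL (3 libraries), a water extract of Glycyrrhizae Radix (licorice root) at 500 and 100 µg/mL (6 libraries) and a water extract of Atractylodis Rhizoma at 500 and 100 µg/mL (6 libraries). For the spread of single genes over all 21 groups, the PI3K inhibitors wortmannin and LY294002 at 10 µM, water extracts of Poria Cocos, Angelicae Gigantis Radix and Paeoniae Radix at 500, 100 and 20 µg/mL, and Glycyrrhizae and Atractylodis at 20 µg/mL were used as well. The vehicle is given as 0.1% DMSO in the sample labels and as 2% in the series text. The sample labels give no DMSO share for the extract groups. A difference in DMSO between extract and vehicle, if there was any, cannot be told apart from the extract. Whether replicates came from separate cultures is not stated, so every p-value measures the spread between these libraries, which may be technical. Total RNA was sequenced in bulk, so a difference in a few cells and a small difference in all cells cannot be told apart.

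Ginseng is the root of Panax ginseng, and its best known constituents are ginsenosides, triterpene saponins. A water extract also holds polysaccharides and sugars. HT29 cells keep an epithelial program with some secretory character, and they respond to inflammatory signals through NF-kB, a transcription factor that is held in the cytoplasm until its inhibitor is degraded and then switches on chemokines such as CXCL1 and CXCL8, which attract neutrophils. Other systems that plant extracts are often tested on are NRF2, which drives antioxidant enzymes, the aryl hydrocarbon receptor, which drives CYP1A1, and the integrated stress response, in which ATF4 drives amino acid synthesis genes.

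The 9 libraries held between 23349216 and 30166504 expected counts, within the 20431980 to 35477712 of all 60. Colorectal epithelial markers summed to 12470 to 12998 CPM (expected counts scaled to library size, not to gene length) in vehicle and 12513 to 13301 in ginseng. Markers of other tissues did not separate the groups as lists, except endothelium at 27.7 to 31.7 in vehicle and 24.5 to 27.1 CPM in ginseng, where ENG carried most of the sum and CDH5 and KDR were at 0. The leukocyte list (1380 to 1444 against 1443 to 1533 CPM) was nearly all LYZ, with CD3E at 0. In the hepatocyte list (461 to 513 against 409 to 487 CPM) SERPINA1 led and ALB was at 0, and the fibroblast list stood at 2.14 to 2.43 against 1.82 to 2.49 CPM with COL1A2 and PDGFRA at 0. Ginseng replicate 1 stood apart from its partners: the median chi-square per gene was 1.69 to 2.32 between replicate 1 and replicate 2 or 3 and 0.68 to 0.73 between replicates 2 and 3, where 0.455 is counting noise and the vehicle pairs gave 0.82 to 1.59. The vehicle libraries carry sample codes that begin with A, ginseng and Glycyrrhizae codes begin with 3, and Poria and Atractylodis codes with 2, Angelicae and Paeoniae codes with 4, and inhibitor codes with 1. The meaning of the codes is not stated, so extract and code set cannot be told apart against vehicle.

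Few genes were called between ginseng and vehicle, and most of the called differences were small. Of 16767 genes tested with edgeR's quasi-likelihood test, 113 passed an adjusted p of 0.05 (0.674% of all tested), 46 higher in ginseng (0.274%) and 67 lower (0.4%). The median log2 fold change was 0.23 among the higher genes and −0.25 among the lower ones. Only 11 of the 113 differed by at least 1.5-fold, 3 higher and 8 lower, and the 5 past 2-fold were all lower and at a mean of 2.10 CPM or less in vehicle. Protein-coding genes made up 43 of the 46 and 54 of the 67. All 6 ginseng libraries lay on one side of all 3 vehicle libraries for 40 of the 46 and 45 of the 67, against 981 genes of all tested (5.85%), and 2835 genes (16.9%) had an unadjusted p under 0.05.

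The number of genes called rested on single libraries and on the estimate of spread. With only the 9 libraries in the fit, edgeR called 0 of 15378 genes, both with the doses as separate groups (2213 at an unadjusted p under 0.05, smallest adjusted p 0.158) and as 1 group (2420, smallest adjusted p 0.0743); DESeq2 on all libraries called 354. Leaving out vehicle replicate 3 left 1 gene called, vehicle replicate 2 left 10, and vehicle replicate 1 gave 180. Without ginseng replicate 1 the count was 455 at 500 and 832 at 100 µg/mL, and without both of these libraries it was 1589. Leaving out replicate 2 or 3 of ginseng gave 50 and 22 at 500 and 10 and 7 at 100 µg/mL. None of the 113 genes was called in all 9 leave-one-out fits. CREB3L1, DDX11 and PLEKHA6 were called in 8 and missed the threshold only without vehicle replicate 3. Of other genes named below, RECQL4 and NFAT5 were called in 7, TIFA in 6, ZMIZ1 in 5 and CDK5RAP3 and SLC6A20 in 4. PGGHG was called in 3, EME2, PAN2 and PIDD1 in 2 and ELF3 in 1.

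**Figure D1:**
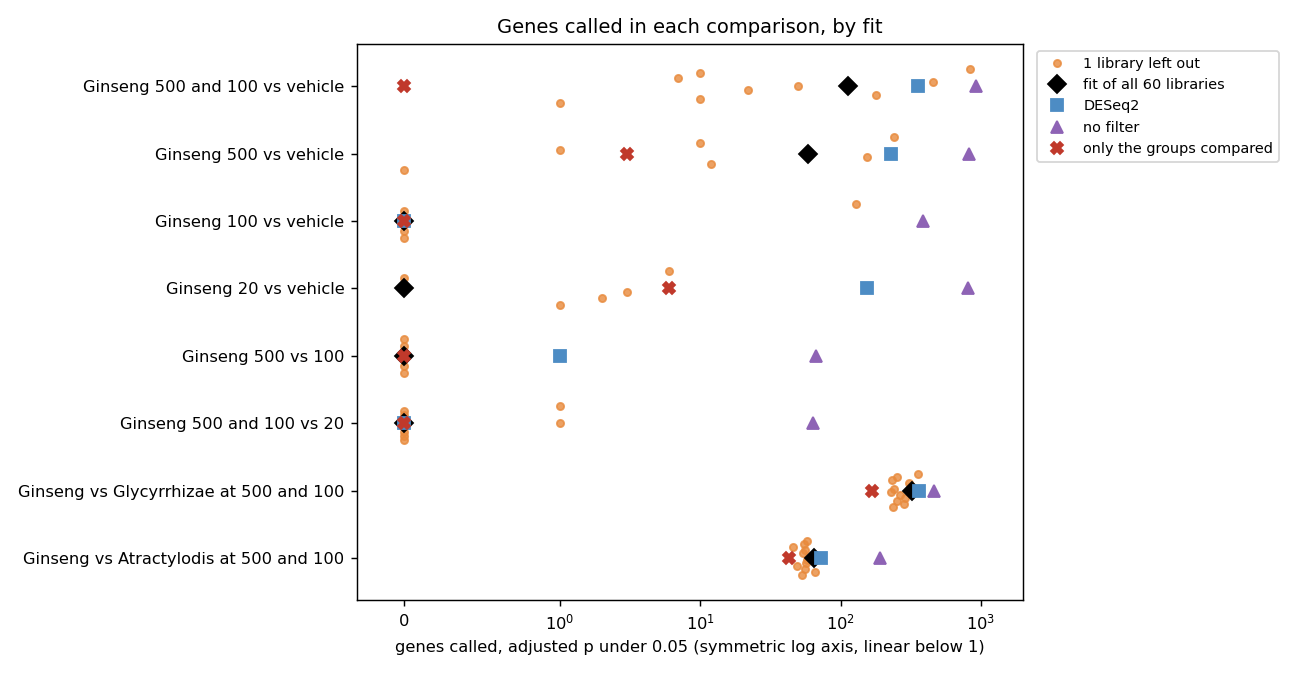
Genes past an adjusted p of 0.05 (symmetric log axis) in each comparison, by the fit that gave the count. The upper doses against vehicle gave 113 genes in the fit of all libraries, and the other fits drawn ranged from 0 to 918.

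Among the genes higher in ginseng, PGGHG, a glucosidase that trims sugars from collagen hydroxylysine (GRCh38 chr11:289135-296107, plus strand), stood at 62.8, 64.6 and 65.9 CPM in vehicle, 77.1, 93.1 and 106 at 500 and 78.7, 95.4 and 107 at 100 µg/mL. All ginseng libraries lay above all vehicle libraries, replicate 1 lowest at each dose, and the gene rose 1.44-fold (log2 0.53 ± 0.12 SE, edgeR adjusted p 0.027). CDK5RAP3, part of the ligase that attaches UFM1 to ribosomes at the endoplasmic reticulum (chr17:47967810-47981774, plus strand), went from 49.2, 48.5 and 44.9 CPM to 54.2, 64.4 and 66.9 at 500 and 52.5, 66.1 and 66.6 at 100 µg/mL. Its groups did not overlap either, with replicate 1 again the lowest, and the rise was 1.3-fold (log2 0.38 ± 0.08, adjusted p 0.0159). EME2 (chr16:1773207-1781708, plus strand), which pairs with MUS81 in a nuclease that cuts branched DNA, read 51.4, 52.8 and 50.5 CPM in vehicle, 58.8, 65.9 and 66.2 at 500 and 63.3, 64.9 and 68.4 at 100 µg/mL. It too was higher in every ginseng library (log2 0.32 ± 0.08, adjusted p 0.0405). Lack of overlap was a condition for naming the largest rises and falls, here and below, so it is no separate support for them.

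DDX11, a DNA helicase that acts in sister chromatid cohesion (chr12:31073845-31104791, plus strand), held 86, 83.2 and 83.3 CPM in vehicle, 93, 104 and 101 at 500 and 91.2, 98 and 98.8 at 100 µg/mL. This 1.16-fold rise (log2 0.21 ± 0.04) shared the smallest adjusted p of the comparison, 0.00735; DDX11 has a near-identical pseudogene, so its count is uncertain where reads could be split. RECQL4, a helicase of the RecQ family, read 49, 47.9 and 45.5 CPM in vehicle, 57.4, 59.9 and 57.3 at 500 and 55.4, 55.5 and 57 at 100 µg/mL (log2 0.27 ± 0.05, adjusted p 0.0159), with no overlap. TIFA, an adaptor that links bacterial sugar sensing to TRAF6 and NF-kB, stood at 9.73, 9.99 and 9.37 against 13.4, 11.8 and 11.6 at 500 and 12, 13.2 and 11.9 at 100 µg/mL. Every ginseng library was above the vehicle libraries (log2 0.34 ± 0.07, adjusted p 0.0159).

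The remaining rises by the naming rule were DYNLT2B (a dynein light chain, log2 0.46), KLHL17 (a kelch protein that binds actin, 0.42), PAN2 (a subunit of a poly(A) nuclease, 0.40), RIDA (a deaminase of reactive imines, 0.37), PIDD1 (a scaffold for caspase-2, 0.36), LSM5 (part of the ring that binds U6 RNA, 0.30), VPS33B (endosome sorting, 0.29), DGKQ (a diacylglycerol kinase, 0.28), HPRT1 (purine salvage, 0.24) and DDX50 (a nucleolar RNA helicase, 0.24), each called with no overlap. Chosen after their values were seen, NEK2, a centrosome kinase, rose by 0.21 ± 0.05 (adjusted p 0.027) and ELF3, an epithelial transcription factor, by 0.21 ± 0.05 (0.0484).

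Among the genes lower in ginseng, PLEKHA6, a pleckstrin homology protein of cell junctions (chr1:204218851-204377665, minus strand), held 186, 188 and 193 CPM in vehicle, 163, 159 and 157 at 500 and 172, 154 and 159 at 100 µg/mL. Its log2 fold change was −0.24 ± 0.04 (adjusted p 0.00735), and no ginseng library reached the lowest vehicle one. CREB3L1, a transcription factor anchored in the endoplasmic reticulum membrane (chr11:46277661-46321422, plus strand), stood at 194, 204 and 223 CPM, then 173, 171 and 166 at 500 and 187, 167 and 164 at 100 µg/mL. The fall was 0.27 ± 0.05 (adjusted p 0.00826), again without overlap. NFAT5, the factor that answers osmotic stress (chr16:69565094-69704666, plus strand), read 150, 160 and 162 CPM in vehicle, 137, 120 and 119 at 500 and 150, 128 and 127 at 100 µg/mL. It fell by 0.28 ± 0.05 (adjusted p 0.00826), and replicate 1 at 100 µg/mL lay just under the lowest vehicle library.

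ZMIZ1, a coactivator of the PIAS type, fell by 0.34 ± 0.07 (adjusted p 0.0159), from 153, 171 and 177 CPM to 151, 126 and 121 at 500 and 148, 125 and 119 at 100 µg/mL. Its replicate 1 libraries lay just under the lowest vehicle library, the others far below. SLC6A20, a proline transporter of brush borders, held 9.43, 10.2 and 9.99 CPM in vehicle, 7.53, 7.1 and 6.53 at 500 and 8.95, 8.85 and 7.97 at 100 µg/mL; the log2 fold change was −0.34 ± 0.08 (adjusted p 0.0258), with the lowest values at the higher dose. Others named by rule were HTR1D (a serotonin receptor, −0.40), the coregulator NCOA5 (−0.21, from a part of the rule that takes other comparisons), ZNF865 (−0.25), and the noncoding LINC01128 (−0.34), RNF139-DT (−0.30) and KCNQ1OT1 (−0.31). KCNQ1OT1 is antisense to KCNQ1 and RNF139-DT is divergent from RNF139, and the strand setting of the counting is not given in the sources used here, so reads of a pair cannot be told apart. NPIPB4 (−0.45), PCDHGA10 (−0.40) and UBE2CP5 (−0.35) belong to families or pseudogene sets that share sequence, so their counts are uncertain.

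Also called lower, and named here after their values were seen, were EP300, CREBBP and SRCAP. The acetyltransferase EP300 went from a mean of 155 to 131 CPM (−0.25 ± 0.06, adjusted p 0.0305), its paralog CREBBP from 167 to 139 (−0.27 ± 0.07, adjusted p 0.0479) and the remodeller SRCAP from 224 to 184 CPM (−0.28 ± 0.07, adjusted p 0.0328). In each of these 3 genes at least 1 ginseng library overlapped vehicle. The genes called lower had longer transcripts (median 5203 bases, against 2575 for those called higher and 3104 for all tested) and a higher GC content (54.9%, 50.8% and 48.6%); the part of length and GC in these calls was not tested.

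**Figure D2:**
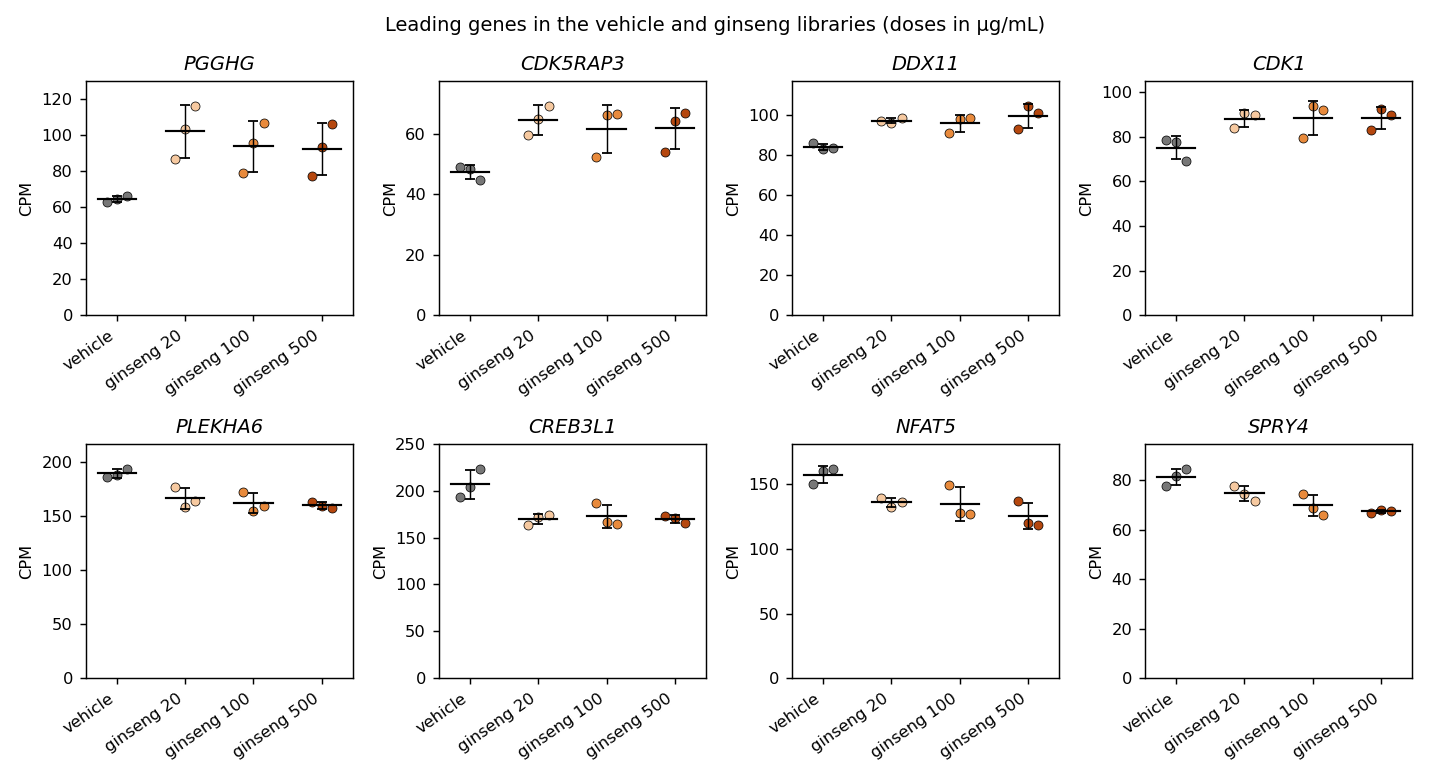
CPM of 8 genes in each library of vehicle and of ginseng at 20, 100 and 500 µg/mL, with points for libraries, lines for means and bars for SD. PGGHG, CDK5RAP3, DDX11 and CDK1 sit above vehicle at the upper doses, and PLEKHA6, CREB3L1, NFAT5 and SPRY4 below it.

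CYP1A1, the classic target of the aryl hydrocarbon receptor, passed the test in the same direction but with 1 library deciding it. Vehicle libraries held 4.87, 0.822 and 0.619 CPM, ginseng 0.475, 1.14 and 0.657 at 500 and 0.713, 0.829 and 0.65 at 100 µg/mL. Vehicle replicate 1 alone was high and the other libraries overlapped. The log2 fold change was −1.51 ± 0.34 (adjusted p 0.0258), and without vehicle replicate 1 it was 0.03 (adjusted p 0.974).

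Across doses the upper levels could not be separated. Against vehicle, 59 genes (0.352%) were called at 500 µg/mL, 29 higher and 30 lower, and 0 at 100 µg/mL by edgeR (1773 at an unadjusted p under 0.05, 10.6%) and by DESeq2. The direct comparison of 500 with 100 µg/mL also gave 0 genes by edgeR (457 unadjusted, 2.73%), with 1 by DESeq2, so a difference between these doses was not shown. The upper doses against 20 µg/mL, a comparison that uses no vehicle library, gave 0 by edgeR (589 unadjusted, 3.51%) and by DESeq2. Leaving out 1 library moved the count at 500 µg/mL between 0 and 241 and that at 100 µg/mL between 0 and 128.

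The values of the called genes at each dose are a description, since these genes were chosen for their distance from the same 3 vehicle libraries and with the 100 µg/mL libraries in the pool. The 46 higher genes had a median log2 fold change over vehicle of 0.22 at 100 and 0.22 at 20 µg/mL, and the 67 lower genes −0.23 and −0.20. At 20 µg/mL against vehicle 0 genes passed edgeR's test (2567 unadjusted, 15.3%), while DESeq2 called 155. PGGHG reached 86.5, 103 and 116 CPM at 20 µg/mL, no lower than at the upper doses, and its difference between upper and lowest doses was −0.13 ± 0.11 (adjusted p 1). SLC6A20, at 10.2, 8.42 and 9.57 CPM with 20 µg/mL, lay between its vehicle and upper-dose means; the upper doses differed from 20 µg/mL by −0.27 ± 0.08 with an edgeR adjusted p of 1.

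The levels of these genes also varied among groups that received no ginseng. PGGHG group means ran from 62.6 to 69.8 CPM in the extract groups whose codes begin with 2, from 73.2 to 87.4 in the Glycyrrhizae groups, and from 86.2 to 104 in the extract groups whose codes begin with 4, against 64.4 in vehicle and 68.5 to 78.9 with the inhibitors. KLHL17 means were 9.94 to 10.7, 12.5 to 12.9 and 13.1 to 14.1 CPM in the same 3 sets of extract groups. Over the 15 groups of extracts other than ginseng, EME2 ran from 49 to 72.8 CPM (63.1 to 78.5 with the inhibitors). The vehicle means of PGGHG, KLHL17 (9.98) and EME2 (51.6) lay within the ranges of these 15 groups. DDX11 ran from 90.8 to 104, above the vehicle mean of 84.2 (74.5 to 86.3 with the inhibitors). CDK5RAP3 (49.8 to 65.7) and RECQL4 (50.5 to 61.2) also lay above vehicle (47.5 for each). With the inhibitors CDK5RAP3 ran from 60.5 to 69.9 and RECQL4 from 39.6 to 47.7. NFAT5 (126 to 139) and ZMIZ1 (127 to 154) lay below vehicle (158 and 167). With the inhibitors NFAT5 ran from 159 to 160 and ZMIZ1 from 158 to 192, near or around the vehicle means. For these 5 genes the other extracts lay on the same side of vehicle as ginseng. CREB3L1 ran from 134 to 193 CPM in these extract groups, below the vehicle mean of 207, and from 244 to 245 with the inhibitors, above it. For PLEKHA6 the vehicle mean of 189 CPM lay above the means of every other group, which ran from 157 to 187. The part of the code set in these differences was not tested.

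**Figure D3:**
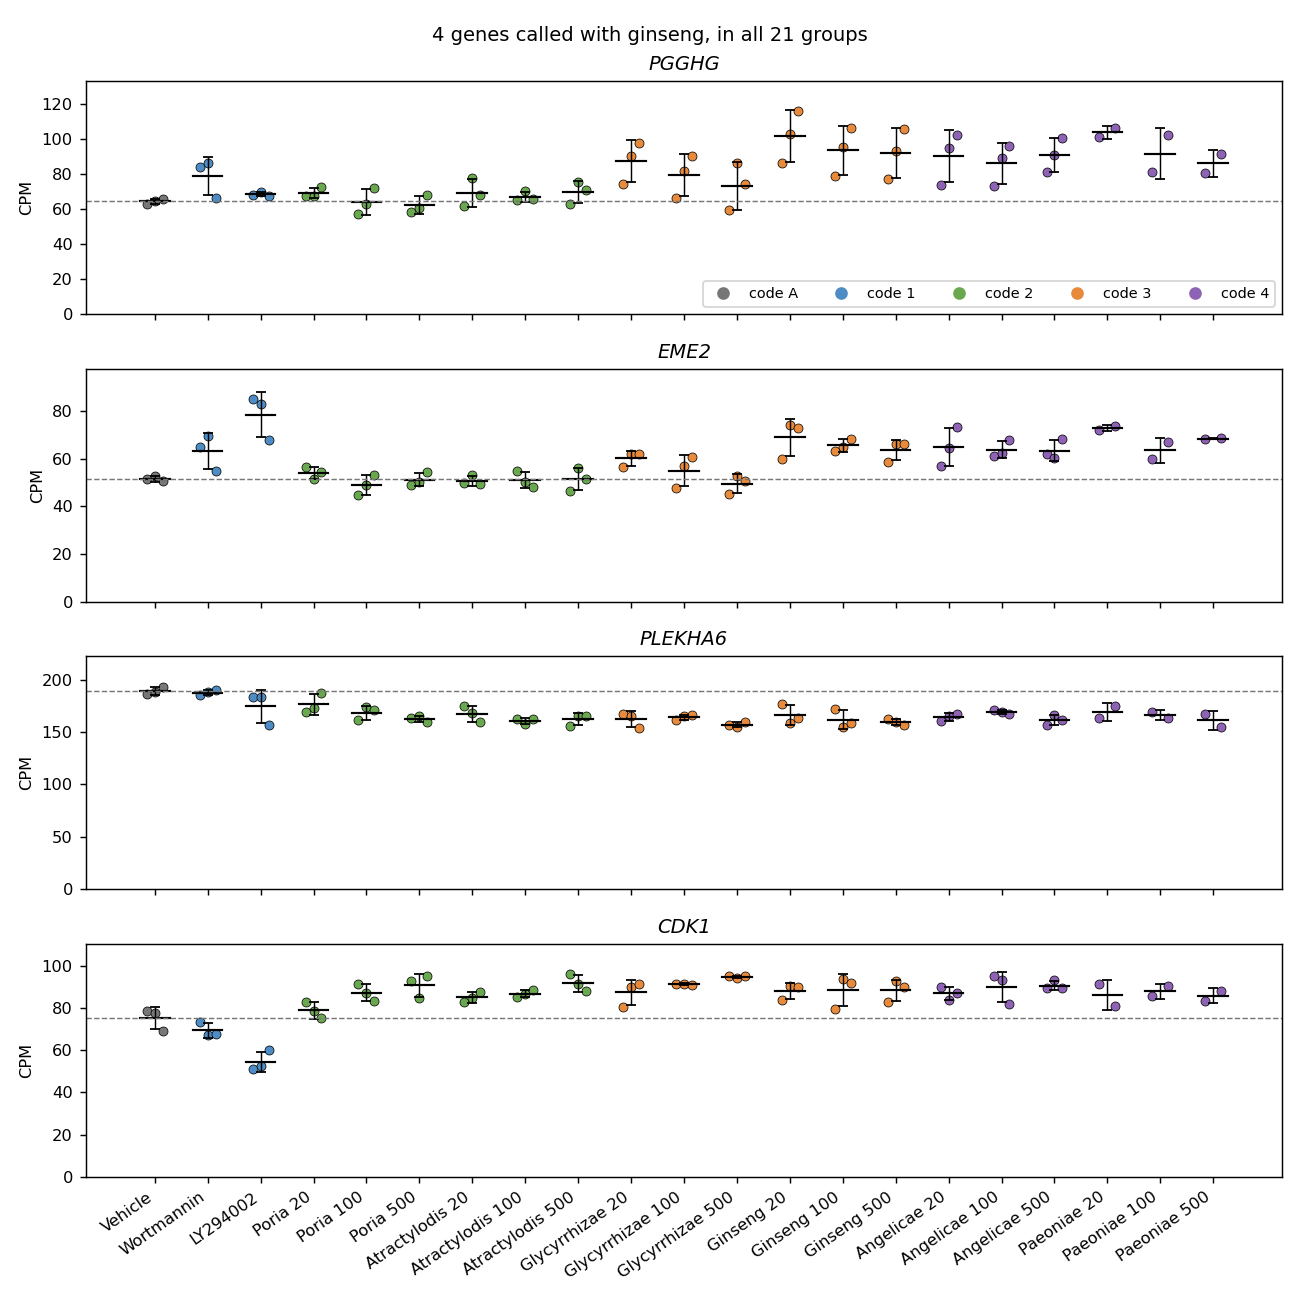
CPM of PGGHG, EME2, PLEKHA6 and CDK1 in every library of the 21 groups, coloured by the first character of the sample code, with the vehicle mean as a dashed line. For PLEKHA6 the vehicle mean of 189 CPM exceeds every other group mean, and PGGHG spans 62.6 to 104 CPM.

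Of 38 lists of pathway and cell type genes, few members were called against vehicle, beside 46 higher and 67 lower of 16767 and a median of 0.002 over all genes. NF-kB targets and chemokines had 0 of 19 called (median 0.08), NRF2 targets 0 of 25 (median 0.05), interferon-stimulated genes 0 of 28 (0.02), p53 targets 0 of 20, FOXO targets 0 of 24, and the unfolded protein response 0 of 18 (0.07). HMGCS1, an early enzyme of cholesterol synthesis, stood at −0.03 (adjusted p 0.884). At 500 µg/mL alone 1 of the 25 NRF2 targets was called, AKR1B10, an aldo-keto reductase (0.22 ± 0.05, adjusted p 0.0454), and the list median was 0.12, against 0.005 at 100 µg/mL. NQO1, an NRF2 target, stood at 0.12 (adjusted p 0.172), HSPA5, the main chaperone of the endoplasmic reticulum, at 0.12 (0.128), and TXNIP, an arrestin that limits glucose uptake, at 0.13 (0.268). CDKN1A, the p53 target that stops the cell cycle, stood at −0.26 (adjusted p 0.244) and the metallothionein MT2A, which binds zinc, at −0.30 (0.209). These values missed the threshold, which does not show that the genes were unchanged.

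In the ATF4 list 1 of 24 genes was called (median 0.12). That gene was PSPH, the last enzyme of serine synthesis, at 32.2, 32.2 and 35.3 CPM in vehicle, 42.8, 39.5 and 40.7 at 500 and 35.1, 39.7 and 40.9 at 100 µg/mL (0.26 ± 0.06, adjusted p 0.0328), and replicate 1 at 100 µg/mL fell within the vehicle range. CHAC1, which degrades glutathione, had a larger value of 0.94 ± 0.27 that did not pass (adjusted p 0.0798), nor did ATF3 (0.71, adjusted p 0.0654) or PSAT1 (0.18, 0.0566), while asparagine synthetase ASNS stood at 0.05. At 500 µg/mL alone 3 of the 24 were called higher, CHAC1, PSPH and DDIT4 (list median 0.16), and at 100 µg/mL none (median 0.09); the test of 500 against 100 µg/mL called no gene by edgeR. MARS1, methionyl-tRNA synthetase, rose by 0.16 ± 0.04 (adjusted p 0.0231) as 1 of 12 tRNA synthetases, the others being uncalled in a list with a median of 0.04. SPRY4, an inhibitor that ERK signalling induces, went from 77.8, 81.5 and 84.6 CPM to 66.6, 68 and 67.4 at 500 and 74.6, 68.7 and 66.1 at 100 µg/mL. This fall of 0.25 ± 0.05 (adjusted p 0.0159) was the 1 call among the 23 genes of the ERK feedback list. SPRED2 and SPRED3, which are not in that list and are named after their values were seen, were called lower as well. In the 9 leave-one-out fits SPRY4 was called in 5 and each SPRED gene in 3. ACADVL, which starts the oxidation of very long fatty acids, rose by 0.14 ± 0.04 (adjusted p 0.0439), 1 of 11 PPAR targets.

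The goblet and secretory list had 1 of 15 called lower, CREB3L1, with a median of −0.16. MUC2, the gel-forming mucin of goblet cells, averaged 21.1 CPM in vehicle and 16.1 in ginseng (−0.39 ± 0.11, adjusted p 0.0625). Without replicate 1 of both ginseng groups, a choice added after the data were seen, 7 of 15 were called lower and 1 higher (median −0.21), and MUC2 was among them; that fit called 1589 of 16758 genes (9.48%), 682 higher and 907 lower. The 13 mitochondrially encoded genes had 0 called (median −0.31, from −0.37 to 0.01), and 9 lower in the same reduced set (median −0.39). Mitochondrial reads made up 8.61, 9.90 and 11.4% of the counts in vehicle replicates 1, 2 and 3. In ginseng replicates 1, 2 and 3 they made up 8.94, 7.82 and 8.10% at 500 and 10.1, 7.86 and 7.50% at 100 µg/mL. Replicate 1 was thus the highest at each of these doses. The part of these shares in the calls was not tested. With only the 9 libraries in the fit both lists had 0 called.

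**Figure D4:**
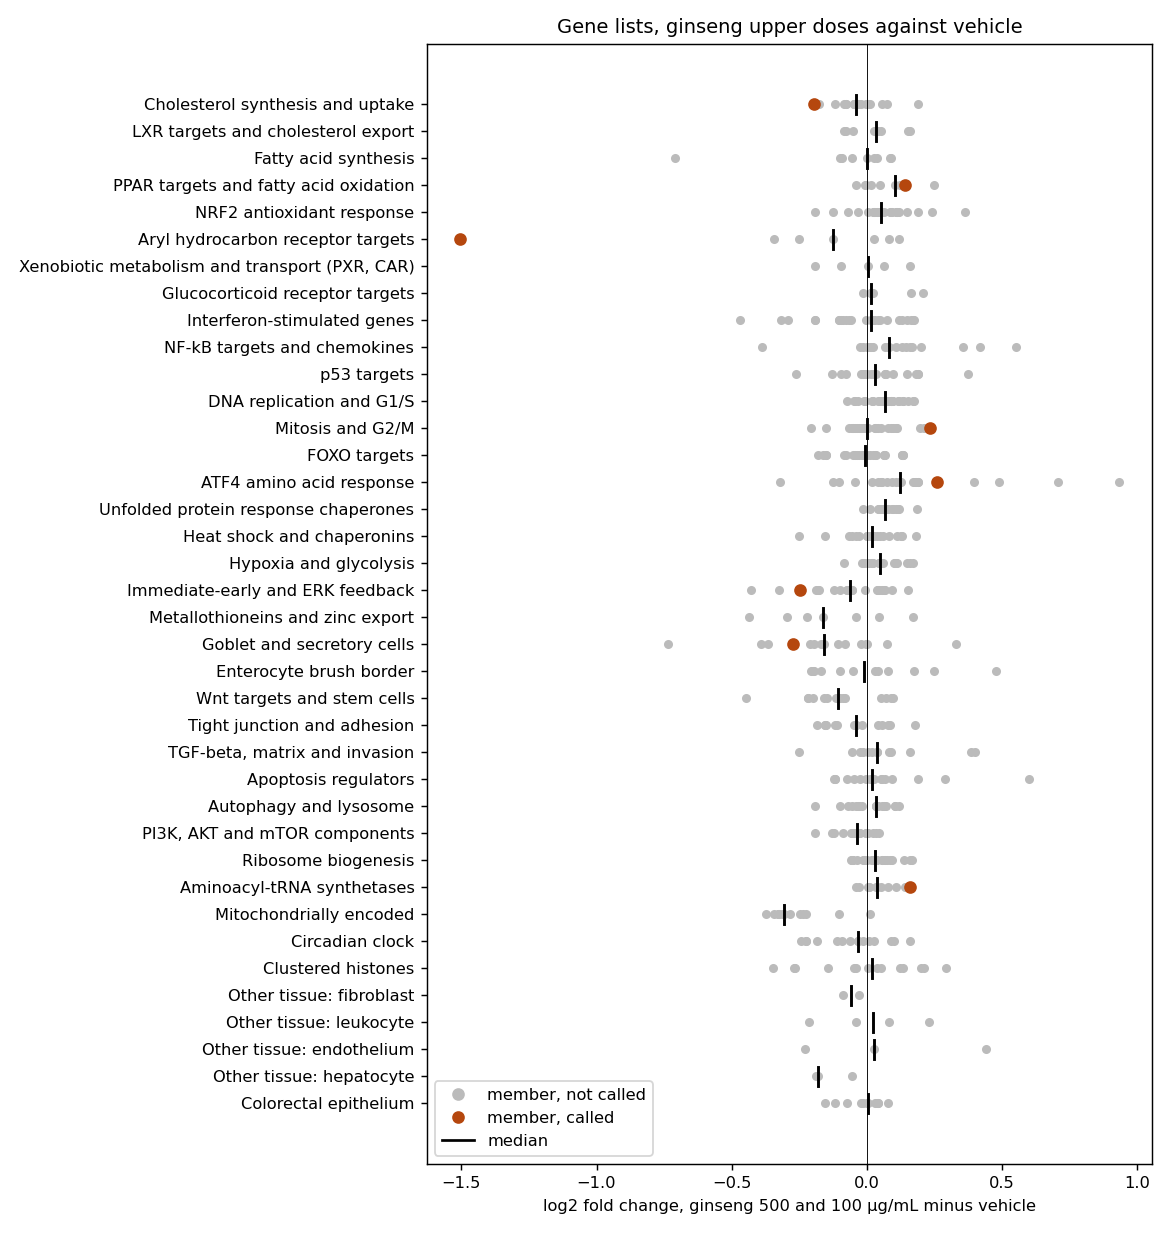
Log2 fold change of ginseng at 500 and 100 µg/mL over vehicle for each measured member of the gene lists, with called members in dark orange and bars at list medians. Called members are single genes such as CDK1, PSPH and CREB3L1, and the mitochondrially encoded list has the median −0.31.

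CDK1, the kinase that drives entry into mitosis, was the 1 called gene of 28 in the mitosis list (median 0.00). It held 78.4, 77.6 and 69 CPM in vehicle, 82.9, 92.5 and 89.6 at 500 and 79.5, 93.6 and 91.9 at 100 µg/mL (0.24 ± 0.05, adjusted p 0.0305), without overlap. Group means ran from 78.8 to 94.7 CPM over the other extracts, above the vehicle mean of 75, and from 54.4 to 69.4 with the inhibitors. It was called in 3 of the 9 leave-one-out fits. PLK1, another mitotic kinase, stood at −0.15 (adjusted p 0.145). The CDK1 promoter is shown because mitotic genes are often controlled through a CHR element (TTTGAA) and CCAAT boxes; letters that match each are in capitals in the 250 bases before the start (RefSeq, GRCh38.p14, chr10:60778081-60778330, plus strand).
CDK1: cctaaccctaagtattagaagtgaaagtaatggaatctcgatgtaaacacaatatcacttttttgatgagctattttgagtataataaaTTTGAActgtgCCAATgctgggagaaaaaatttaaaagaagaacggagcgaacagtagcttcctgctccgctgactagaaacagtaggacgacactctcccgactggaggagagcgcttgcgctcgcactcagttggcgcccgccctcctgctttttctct
TTTGAA, searched on both strands, was in 13 of 23 mitosis promoters (56.5%) and in 13.6% of 27305 promoters, and CCAAT in 20 of 23 (87.0%) against 33.0%. These motifs were picked with their known sites in view, and a match is not evidence of binding. In CDK1 the TTTGAA match begins 161 and the CCAAT match 150 bases before the start, so CCAAT is the nearer to the start, whereas known CHR sites usually lie nearer to it than their CCAAT boxes.

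Chemokine genes stood far lower in ginseng than in Glycyrrhizae and Atractylodis. The 6 Angelicae and Paeoniae groups, not tested against ginseng, were near vehicle as ginseng was. Their means were 1.86 to 3.09 CPM for CXCL1 and 5.94 to 8.08 for CXCL8. Poria was not tested against ginseng either. Over the Poria and Atractylodis groups at all doses, means ran from 5.54 to 36.2 CPM for CXCL1 and from 10.4 to 32.9 for CXCL8. The vehicle means were 1.92 and 6.26 CPM. At matched doses of 500 and 100 µg/mL, ginseng and Glycyrrhizae, whose codes begin with the same character, differed in 325 genes (1.94%), 176 higher in ginseng (1.05%) and 149 lower (0.889%), and leaving out 1 library moved that count between 230 and 359. Of 19 NF-kB targets 11 were called lower in ginseng (median −0.81, against 0.004 over all genes). CXCL1 held 1.58, 1.93 and 2.25 CPM in vehicle, 2.67, 1.74 and 1.82 with ginseng at 500, 2.45, 1.7 and 1.82 with ginseng at 100, and 23.6, 23.5 and 26.4 or 27.2, 26.2 and 25.6 with Glycyrrhizae at 500 and 100 µg/mL. Ginseng libraries lay near the vehicle libraries and every Glycyrrhizae library far above it (−3.64 ± 0.43, adjusted p 1.26e-07). CXCL8 read 6.57, 6.33 and 5.88 CPM in vehicle, 6.51, 7.38 and 7.63 and 6.57, 7.31 and 7.77 with ginseng, and 25.7, 26.4 and 30.6 and 24.3, 26.8 and 29.6 with Glycyrrhizae (−1.92 ± 0.26, adjusted p 4.38e-06). Against vehicle, ginseng CXCL8 was 0.20 higher with an adjusted p of 0.839.

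The promoters of both chemokines carry the same kB site. They are shown because CXCL1 and CXCL8 were both called lower in ginseng than in Glycyrrhizae and in Atractylodis. Each is given as the 250 bases before the start (RefSeq, GRCh38.p14, plus strand), with the match GGAATTTCC in capitals. The spans are chr4:73869143-73869392 for CXCL1 and chr4:73740319-73740568 for CXCL8.
CXCL1: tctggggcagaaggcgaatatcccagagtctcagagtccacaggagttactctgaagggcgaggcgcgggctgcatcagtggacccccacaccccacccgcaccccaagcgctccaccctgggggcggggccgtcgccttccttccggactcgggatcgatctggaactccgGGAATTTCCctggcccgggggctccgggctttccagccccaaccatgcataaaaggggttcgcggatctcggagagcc
CXCL8: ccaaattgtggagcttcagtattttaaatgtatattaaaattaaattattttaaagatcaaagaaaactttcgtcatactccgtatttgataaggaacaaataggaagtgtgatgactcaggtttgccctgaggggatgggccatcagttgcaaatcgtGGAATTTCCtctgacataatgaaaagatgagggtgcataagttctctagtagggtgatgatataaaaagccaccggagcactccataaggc
The site begins 78 bases before the start in CXCL1 and 91 in CXCL8. Its general form GGANNNTCC, searched on both strands, was in 13 of 18 promoters of the NF-kB list (72.2%) and in 7.8% of 27305 promoters. List and motif were both picked with known NF-kB sites in view, so the higher share is built into the choice. A match is not evidence of binding.

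Other defence genes were lower in ginseng than in Glycyrrhizae as well. In the Angelicae and Paeoniae groups the means were 4.98 to 6.73 CPM for PI3 and 99.5 to 108 for LCN2. Over the Poria and Atractylodis groups at all doses they were 6.30 to 30.4 and 108 to 183 CPM. PI3, the elastase inhibitor elafin, held 6.4, 6.29 and 6.59 CPM in vehicle, 6.95, 5.27 and 4.6 with ginseng at 500 and 6.57, 4.37 and 4.75 at 100 µg/mL, and 21.3 to 25 with Glycyrrhizae (−2.08 ± 0.14, adjusted p 1.33e-15). LCN2, the iron-scavenging lipocalin, was lower in ginseng by 0.66 ± 0.07 (adjusted p 1.32e-09), and BIRC3, an inhibitor of apoptosis, by 0.81 ± 0.17 (adjusted p 0.00357). CCL20, which attracts lymphocytes and dendritic cells, averaged 0.142 CPM in vehicle and 0.172 in ginseng (−4.53 ± 0.68 against Glycyrrhizae, adjusted p 2.45e-05).

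Mitotic and secretory genes separated the 2 extracts too. In the mitosis list 12 of 28 were called lower in ginseng (median −0.13), among them CDC20, which activates the anaphase complex (−0.18 ± 0.03, adjusted p 0.000163), AURKA (−0.15 ± 0.03, 0.00128) and PLK1 (−0.21 ± 0.04, 0.00433), while CDK1 was not (−0.07 ± 0.04, 0.517). In the goblet list 5 of 15 were called higher (median 0.15), among them REG4, a secreted lectin (0.49 ± 0.05, adjusted p 5.08e-09), beside AGR2, SPINK4, TFF3 and CREB3L1. CREB3L1, lower in ginseng than in vehicle, was thus higher than in Glycyrrhizae (0.20 ± 0.04, adjusted p 0.00289). Of 12 brush border genes 4 were called higher, CA2, VIL1, GUCA2A and DPP4.

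Against Atractylodis, a comparison added after the data were seen, 65 genes differed (0.388%), 13 higher in ginseng (0.0775%) and 52 lower (0.31%). The code sets of these extracts differ, so extract and code set cannot be told apart here. Of 19 NF-kB targets 11 were called lower (median −0.74), in a comparison that shares its ginseng libraries with the one above. Atractylodis libraries held 35.2, 36.1 and 34.7 CPM of CXCL1 at 500 and 37.9, 36.3 and 34.5 at 100 µg/mL (ginseng −4.13 ± 0.42, adjusted p 2.33e-09). CXCL8 was at 31.3 to 34.4 CPM (−2.18 ± 0.26, adjusted p 1.25e-07) and PI3 at 29 to 30.9 (−2.48 ± 0.13, adjusted p 7.8e-19). In the interferon-stimulated list 7 of 28 were called lower in ginseng (median −0.28), among them IFIT1 (−0.52 ± 0.08, adjusted p 5.1e-05) and OAS3 (−0.28 ± 0.05, 0.000532), and that count was 4 with only the groups compared in the fit. EME2 was higher in ginseng than in either extract, by 0.31 over Glycyrrhizae (adjusted p 0.00289) and 0.34 over Atractylodis (0.00223), and PGGHG passed over Atractylodis only (0.44, adjusted p 0.0123, against 0.29 and 0.116 over Glycyrrhizae), a contrast that was not itself tested.

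**Figure D5:**
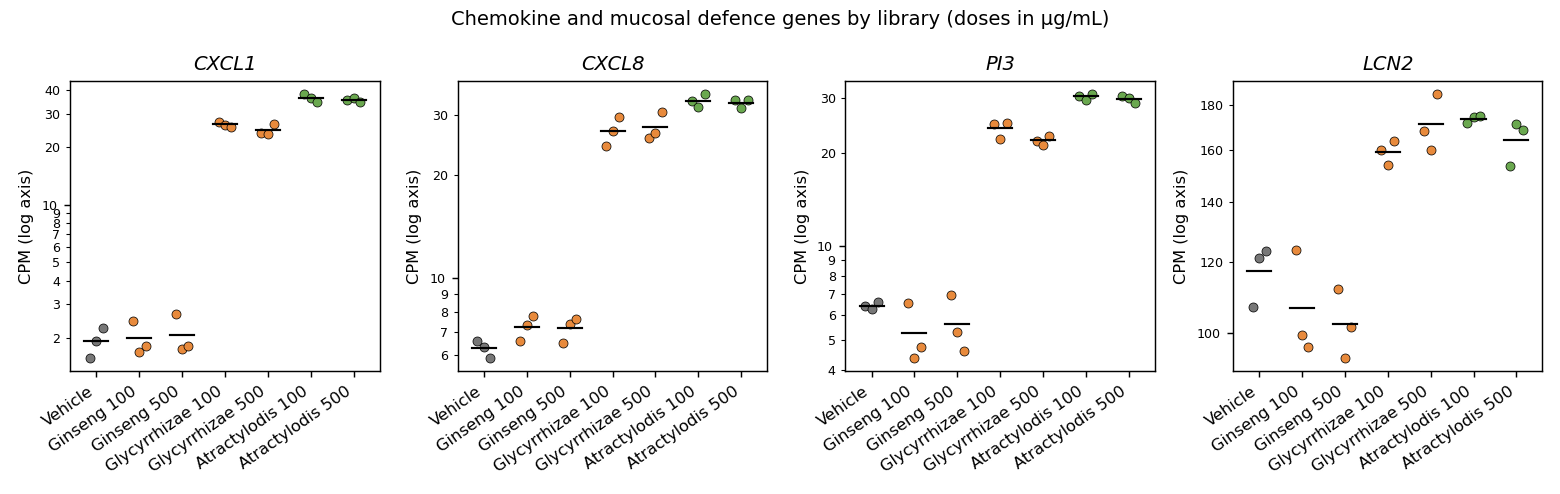
CPM (log axis) of CXCL1, CXCL8, PI3 and LCN2 in vehicle and in ginseng, Glycyrrhizae and Atractylodis at 100 and 500 µg/mL, with points for libraries and lines for means. For CXCL1 the ginseng libraries stay between 1.7 and 2.67 CPM, near vehicle, while those of Glycyrrhizae and Atractylodis start at 23.5.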

How the data were processed

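Reads were aligned and quantified by the authors; FastQC 0.11.9, Trim Galore 0.6.5, STAR 2.7.3a and RSEM 1.3.3 and the human build GRCh38 are named in the submitters' processing notes. The deposited values are RSEM expected counts per gene, made by the authors, in 1 table of 60675 genes and 273 columns; 60 columns matched the labels of these samples and the other 213 were not used. No source used here gives the strand setting or the annotation release. Gene names came from a table of gene IDs and symbols for 56558 of the IDs, and gene coordinates, transcript lengths and GC content from GENCODE 29 (GRCh38).

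Expected counts were rounded and tested with edgeR 4.0.16 (R 4.3.3): TMM scaling, its expression filter (minimum count 10), 1 mean per group over 60 libraries and 21 groups (39 residual degrees of freedom), the quasi-likelihood test and Benjamini-Hochberg adjustment over 16767 genes at 0.05. Errors after ± are standard errors of log2 fold changes. Per-library CPM used TMM-scaled totals. The same fit gave 7 planned comparisons and 1 added after the data were seen. Alternatives were DESeq2 1.42.0, other scaling and filters, smaller fits, a replicate block and leaving out libraries.

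Members and 38 gene lists were chosen with earlier results of these data known. Named genes were the 15 largest rises and falls among called genes with a mean of at least 5 CPM and no overlap between groups, up to 4 called genes per list, a set of sentinel genes, and up to 4 genes of lowest p per other comparison. The results of a few genes are not reported here.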

Additional observations from a re-analysis of the deposited data

Results flagged for a closer look

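Over the 6 ginseng libraries at 500 and 100 µg/mL, 4 of 62 named genes had 1 library far from the rest, where chance flags about 1 in 20. In TSC22D3, a glucocorticoid-induced regulator, replicate 1 at 500 µg/mL held 32.0 CPM against at most 20.8 in the others, a gap of 0.817 of the whole range. In ASNS, asparagine synthetase, the same library held 64.8 CPM against 55.0, a gap of 0.788. In SPRY4 replicate 1 at 100 µg/mL held 74.6 CPM against 68.7, a gap of 0.691, and in MCM10, a replication factor, it was lowest at 35.1 CPM, with the next at 38.4, a gap of 0.641. All 4 gaps come from a replicate 1 library.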

How the results depend on the processing

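Counts of called genes depended on the fit. For ginseng at 500 and 100 µg/mL against vehicle (113), DESeq2 gave 354, a filter of 1 CPM in 3 libraries 177, no filter 918, only the compared groups 0, the ginseng libraries as 1 group 0, and leaving out replicate 1 of both doses 1589; leave-one-out counts ran from 1 to 832. Against vehicle at 500 µg/mL (59) these gave DESeq2 227, the 1 CPM filter 89, no filter 824, only the compared groups 3, both replicate 1 libraries out 511, and leave-one-out 0 to 241. At 100 µg/mL (0) no filter gave 388, both replicate 1 libraries out 286, and leave-one-out 0 to 128. At 20 µg/mL (0) they were DESeq2 155, the 1 CPM filter 31, no filter 808, only the compared groups 6, and leave-one-out 0 to 6. For 500 against 100 µg/mL (0) DESeq2 gave 1 and no filter 67, and for the upper doses against 20 µg/mL (0) no filter gave 64 and leave-one-out 0 to 1. Against Glycyrrhizae (325) only the compared groups gave 168, and against Atractylodis (65) no filter gave 192 and only the compared groups 43. Fewer samples enter the smaller fits, and their estimate of spread differs as well. The common coefficient of variation was 0.0621 with the 9 libraries in 3 groups and 0.0570 with all 60 libraries. The cause of the shifts in count was not tested. CYP1A1 reversed, at 0.029 without vehicle replicate 1, and ranged to −1.93 over the leave-one-out fits.

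In no comparison made here did all 3 same-numbered pairs of 2 groups correlate above 0.1, so the numbers were not taken to pair samples: the deviations of same-numbered libraries of vehicle and ginseng correlated at −0.05, −0.00 and −0.03 at 500 and −0.13, −0.01 and −0.04 at 100 µg/mL. Replicate 1 of the 2 ginseng doses correlated at 0.20, and Glycyrrhizae with Atractylodis at 500 µg/mL, not compared here, at 0.15, 0.11 and 0.10. With the replicate number as a block, the counts were 320 for both doses, 193 at 500, 2 at 100 and 77 at 20 µg/mL against vehicle, and 528 against Glycyrrhizae. With median-of-ratios scaling the main count was 110.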
